A study of Mus musculus with 4 samples.

Results

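The enzymes that carry glucose to pyruvate and lactate, and pyruvate through the citric acid cycle, were followed across 4 samples of mouse hippocampus. A list of 37 genes was looked up in the probe annotation of the array. All probe sets annotated to exactly 1 gene symbol were taken where that symbol was on the list, with control probe sets left out. This gave 45 of the array's 12422 probe sets, for 34 genes. No such probe set was held for Gpi1 or Eno1, and Gapdh was read by control probe sets and by probe sets shared with its pseudogenes. Of the 45 probe sets, 35 had a mean log2 signal above the median of all probe sets and were analysed, among 6211 on the whole array. These 35 read 30 genes, and 0 of them fell below the floor of 27.7 units in any sample. The other 10 probe sets were too dim, with 6 below the floor in all 4 samples and 4 below it in 1 sample. Each of these 10 is given below.

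The study measured total RNA from 4 hippocampus samples on Affymetrix Murine Genome arrays, with 1 array per sample and a series title that calls the samples replicates. All 4 form a single group, and the labels used here give no strain, sex, age, genotype or treatment, nor whether the samples came from separate animals. No comparison between conditions was therefore possible, and the spread between samples may be technical. Samples 1 to 4 are numbered for naming alone, and having only 4 arrays limits the precision. Signals are quantile-normalised array units, listed in the order of samples 1 to 4, and a mean is given with its SD (n = 4). The signal of one probe set is not compared with that of another, since probe sets differ in how strongly they bind.

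Glycolysis splits glucose in the cytosol into pyruvate, with hexokinase, phosphofructokinase and pyruvate kinase as its steps that are in practice irreversible. Pyruvate is either reduced to lactate by lactate dehydrogenase or carried into mitochondria, where the pyruvate dehydrogenase complex makes the acetyl-CoA that citrate synthase feeds into the citric acid cycle. Many steps exist as isoforms from separate genes: in brain, aldolase C is typical of astrocytes and enolase 2 (neuron-specific enolase) of neurons, while muscle-type and testis-type isoforms are better known from other tissues.

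Most enzyme transcripts differed little between the samples. Of the 35 probe sets, 26 spanned less than 1.5-fold between their lowest and highest sample (74.3%), against 56.2% of all analysed probe sets. The median range was 1.31-fold for the enzymes and 1.44-fold for all analysed probe sets. Enzyme transcripts gave strong signals, however, and strong signals vary less on such arrays: 25 of the 35 probe sets lay in the highest 25% of signal. Among probe sets that bright the median range was 1.27-fold for the enzymes and 1.30-fold for all 1553 probe sets, and 21 of 25 enzyme probe sets (84.0%) spanned less than 1.5-fold, against 75.3%. A range of 2-fold or more was seen for 0 of the 25, against 4.44%. The median SD of the 35 enzyme probe sets was 1.03 times the value that the array's intensity trend gives for their signal, and 0.939 times for all analysed probe sets. The SD lay below the trend for 17 of the 35 (48.6%), against 54.4%. The enzymes thus lay near the spread of other transcripts of like signal.

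**Figure D1:**
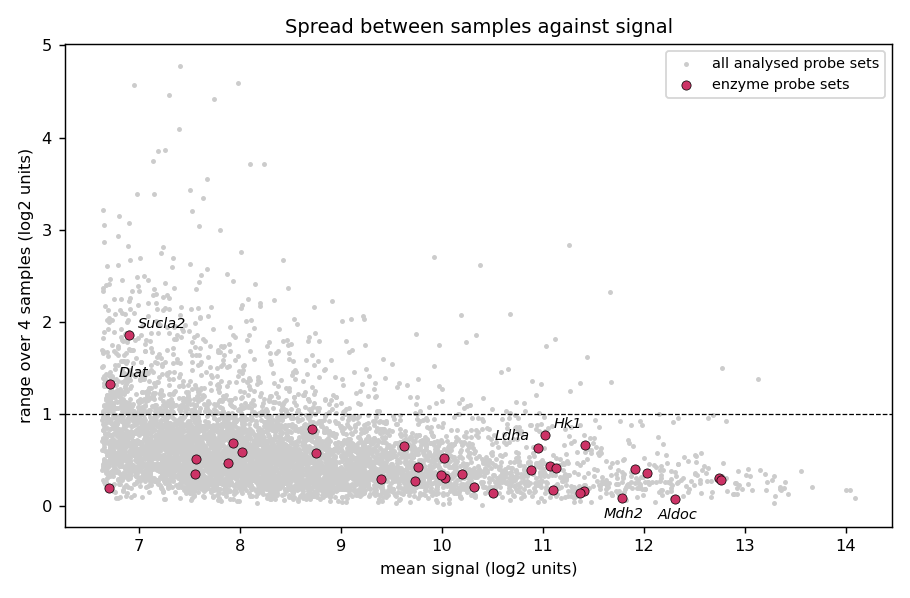
Range over the 4 samples (log2 units) against mean signal (log2 units) for the 35 analysed enzyme probe sets (red) and all 6211 analysed probe sets (grey), with a dashed line at a 2-fold range. Only a probe set of Sucla2 and one of Dlat among the enzymes lie above the line, both at low signal, and Aldoc and Mdh2 lie near the bottom.

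No enzyme probe set passed the test of its variance against the intensity trend. Each variance was compared with limma's intensity trend by a one-sided F test, named as limma beside the adjusted p-values. With p-values adjusted by Benjamini-Hochberg over all 6211 analysed probe sets, 0 of the 35 passed at 0.05, against 0.0% of all. The smallest adjusted p among the 35 was 0.911. At an unadjusted p under 0.05, 0 of the 35 were found, against 5.86% (364) of all analysed probe sets. A prior without the robust option also gave 0. Only 2 of the 35 probe sets (5.71%) spanned 2-fold or more, against 14.4% of all analysed probe sets. In 5 of the 35 (14.3%, against 6.02%) 1 sample lay far from the other 3 by Dixon's criterion. Single values below are therefore given as measured, and none is called variable.

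The enzymes were more often lowest in sample 4 than in any other sample. Sample 4 was the lowest for 17 of the 35 probe sets (48.6%), against 30.6% of all analysed probe sets. Samples 1, 2 and 3 were lowest for 7, 6 and 5 of the 35, against 23.2%, 22.7% and 23.4% of all. Samples 1 to 4 were highest for 11, 8, 10 and 6 of the 35, against 24.7%, 21.6%, 22.5% and 31.2% of all. The signal exceeded the average of the remaining samples for 19, 19, 20 and 13 of the 35 in samples 1 to 4, against 51.4%, 51.1%, 51.1% and 52.2% of all. With quantile normalization, the share lowest in sample 4 was larger in glycolysis and lactate metabolism (10 of 17 probe sets) than among the other enzymes (7 of 18). This difference was not tested, and it did not hold when the arrays were scaled to the same median. Sample 4 was then no longer lowest for Pfkl, Eno2, Tpi1 and a probe set each of Aldoa and Pkm. Of the other enzymes this was so for Pdhb alone. The median log2 deviation from the mean of the other samples was 0.03 in each of samples 1, 2 and 3 and -0.13 in sample 4, against 0.01, 0.01, 0.01 and 0.02 over all analysed probe sets. The size depended on the scaling. With the arrays scaled to the same median, the median in sample 4 was 0.005, where that of all analysed probe sets was 0.107, and sample 4 was lowest for 11 of the 35 probe sets, against 23.9% of all. With the deposited values it was -0.075, against 0.0265 over all analysed probe sets, and sample 4 was lowest for 14, against 30.3% of all. Relative to all analysed probe sets, the enzymes lay lower in sample 4 by a log2 difference of -0.145, -0.101 and -0.102 with quantile normalization, the deposited values and median scaling.

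**Figure D2:**
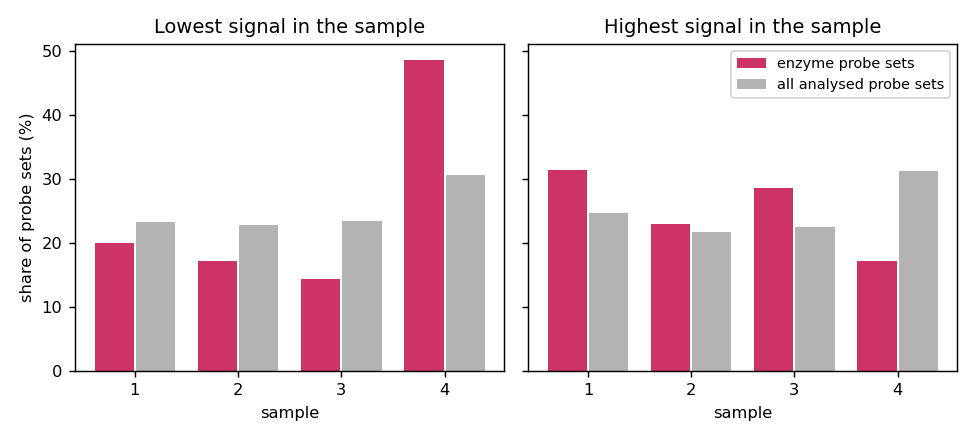
Share of probe sets (%) whose lowest (left) or highest (right) signal fell in each sample, for the 35 enzyme probe sets (red) and all 6211 analysed probe sets (grey). Sample 4 was the lowest for 48.6% of the enzyme probe sets, against 30.6% of all, and the highest for 17.1%, against 31.2% of all.

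The 3 ratios of RNA quality were highest in sample 4, while measures of cell content differed in their order. A control transcript's 3' signal over its 5' signal grows when RNA or its copy is less complete, and for beta-actin this ratio was 1.84, 1.64, 1.51 and 2.03 in samples 1 to 4, highest in sample 4. For pyruvate carboxylase it was 2.62, 1.81, 3.03 and 3.16, and for Gapdh, given below, it was also highest in sample 4. Of 10 neuron marker genes, 9 had a probe set, and their summed signal was lowest in sample 4, at 26914, 24395, 24657 and 22232 units. The 8 astrocyte genes with a probe set summed to 20455, 21684, 24040.4 and 21632 units, lowest in sample 1. A single Apoe probe set gave 10075, 10292, 12099 and 10843.5 of these units. Both Gfap probe sets had another order, lowest in sample 3 and highest in sample 4, at 827, 876, 581 and 1320 units on the brighter. The oligodendrocyte sum was highest in sample 2 (10649, 14239, 10480.2 and 13375 units), the microglia sum was lowest in sample 4 (3489, 3881, 3545 and 3045 units), and the erythroid sum lowest in sample 3 (14261, 11216, 4718 and 8807 units). Vessel genes summed to between 708 and 945 units, and choroid plexus genes to between 2103 and 4204 units. Each sum adds probe sets that bind differently, so its brightest probe sets weigh most. In the erythroid sum a single Hba-a1 probe set gave 10256, 9251, 3630 and 6998 units. In each list some probe sets were above the floor, so no cell type could be called absent. The part of RNA quality or of cell content in the enzymes' values was not tested. In bulk tissue, fewer cells of a type and less RNA per cell cannot be told apart.

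**Figure D3:**
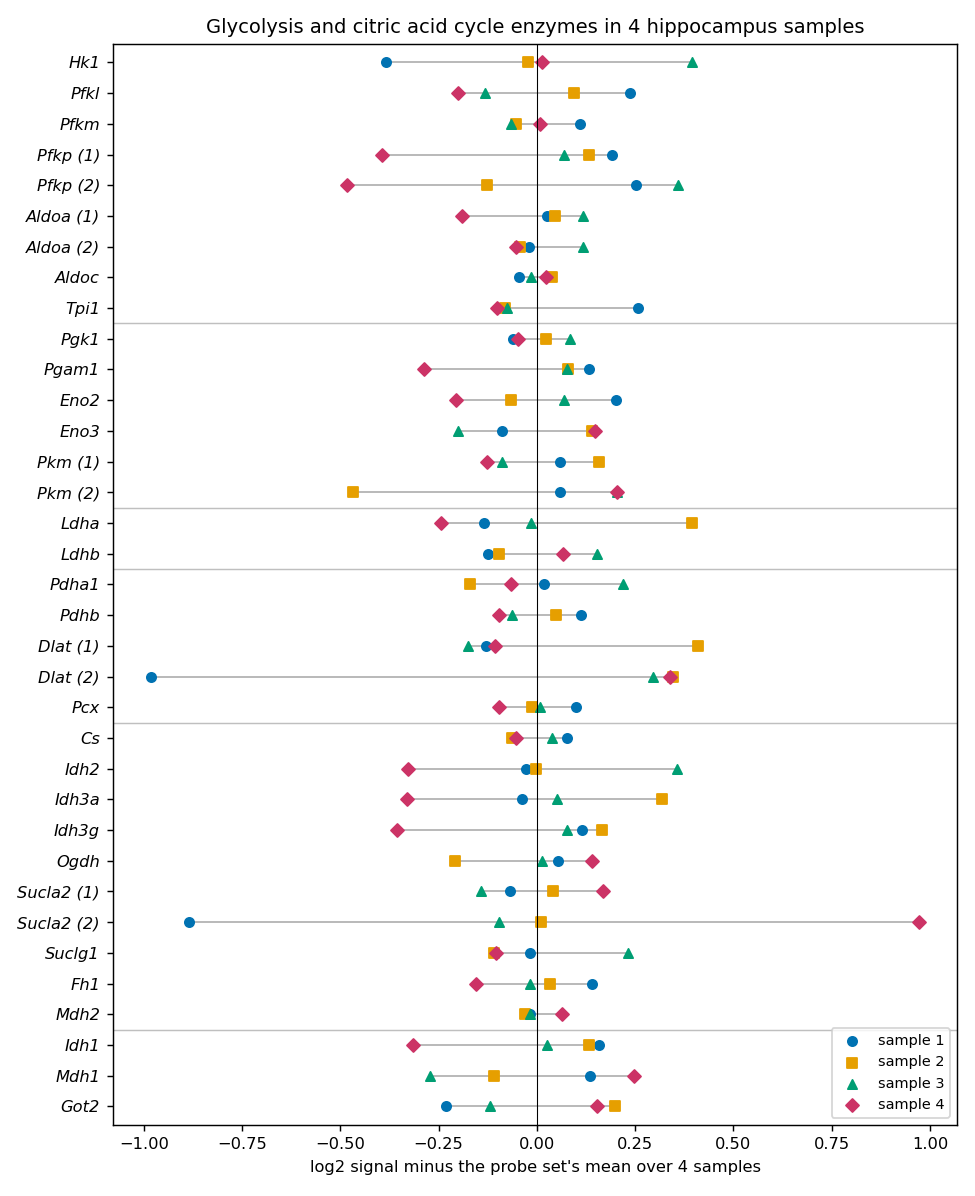
Log2 signal of each of the 35 analysed enzyme probe sets minus its own mean over 4 samples, with 1 row per probe set in pathway order and 1 symbol per sample; numbers in brackets tell apart probe sets of the same gene, and grey lines part the steps of the pathway. Sample 4 (diamonds) lies at the left end in 17 of the 35 rows (48.6%), against 30.6% of all analysed probe sets. These rows include Pfkp, Pgam1 and all 4 isocitrate dehydrogenase genes. The widest rows are those of a Dlat and a Sucla2 probe set.

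Glycolysis begins with hexokinase, and hexokinase 1 (Hk1), the main form in brain, had one of the wider ranges among the strongly expressed enzymes. Hk1 averaged 2117 ± 468 units, from 1594, 2045, 2732 and 2098 in samples 1 to 4. Sample 3 was 1.44-fold above the mean of the other samples and sample 1 was 1.43-fold below it, with an SD 1.90 times the trend (limma, adjusted p = 0.941). Hexokinase 2 (Hk2), better known from muscle and fat, was dim. One Hk2 probe set measured 61.6, 60.5 and 42.2 units in the first 3 samples but was under the floor in sample 4, and the other lay below the floor in all 4 samples. The Hk1 and Hk2 transcripts thus had different orders, with Hk1 lowest in sample 1 and the brighter Hk2 probe set highest there.

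The phosphofructokinase genes, whose products make the committed step of glycolysis, differed in how steady they were. The muscle-type gene Pfkm was steady at 2197 ± 124 units, a 1.13-fold range (0.17 on the log2 scale, and 0.29 with median scaling). The liver-type gene Pfkl gave 2538, 2302, 1965 and 1876 units, with samples 1 and 2 above samples 3 and 4. The platelet-type gene Pfkp was lowest in sample 4 on both of its probe sets. The first gave 492, 473, 452 and 328 units, and the other, built from a related set of probes, gave 501, 386, 539 and 301 units. Relative to the average of samples 1 to 3, sample 4 was lower 1.44-fold on the first and 1.56-fold on the second (limma, adjusted p = 0.994 and 0.981). The probe sets did not share their highest sample, which was sample 1 on the one and sample 3 on the other.

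Aldolase splits the phosphorylated hexose. Aldolase C (Aldoc), the astrocyte-typical form, gave 4931, 5226, 5042 and 5169 units, a mean of 5092 ± 132 and a coefficient of variation of 2.60%. Its 1.06-fold range was the narrowest of the 35 probe sets, a log2 range of 0.08. It was not the narrowest when arrays were scaled to the same median (0.20, against 0.17 for Pgk1 and for one Pkm probe set). Nor was it without sample 1 (0.05, against 0.02 for Tpi1), sample 2 (0.073, against 0.071 for a Dlat probe set) or sample 3 (0.08, against 0.03 for an Aldoa probe set). The astrocyte marker sum spanned more than this, from 20455 units in sample 1 to 24040.4 in sample 3. Aldolase A (Aldoa), the widely expressed form, gave 6998, 7100.1, 7465 and 6030.0 units on one probe set and 2670.4, 2629.5, 2938 and 2614 units on the other. Both were highest in sample 3, and both are of a kind that can read related sequences. Triose phosphate isomerase (Tpi1), which interconverts the triose phosphates, gave 4998, 3953, 3966 and 3900.4 units. For Tpi1, sample 1 stood 1.27-fold above the mean of samples 2 to 4. Its log2 range was 0.36 over all samples and 0.02 without sample 1.

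Among the enzymes from triose phosphates to pyruvate, sample 4 was lowest for phosphoglycerate mutase 1 and enolase 2. Phosphoglycerate mutase 1 (Pgam1) gave 2456, 2367, 2363 and 1836 units, so that samples 1 to 3 lay together and sample 4 was 1.30-fold below their mean (limma, adjusted p = 0.994). The muscle form Pgam2 was dim, with 57.5, 44.4 and 43.2 units in samples 1 to 3, and it was below the floor in sample 4. Enolase 2 (Eno2) gave 4436, 3684, 4042 and 3345 units, with a mean of 3877 ± 469. It was highest in sample 1 and lowest in sample 4, as was the summed signal of the neuron markers, but with median scaling its lowest sample was sample 2. The muscle enolase Eno3 gave 178, 208, 164 and 209 units, an order unlike that of Eno2. Phosphoglycerate kinase 1 (Pgk1), the first step that makes ATP, was steady at 2637 ± 124 units, a 1.11-fold range.

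Pyruvate kinase and Gapdh gave different accounts by probe set. For pyruvate kinase (Pkm), which makes pyruvate, one probe set gave 7228, 7748, 6533 and 6354 units, highest in sample 2 (in sample 1 with the deposited values and with median scaling). The other gave 2856, 1983, 3156 and 3156 units, lowest in sample 2 and 1.54-fold below the mean of the others there (limma, adjusted p = 0.915). With quantile normalization sample 2 was thus the highest on one Pkm probe set and the lowest on the other, and both are of kinds that can read more than 1 transcript. Gapdh, which oxidises glyceraldehyde phosphate, was read by control probe sets along its transcript, given here in deposited units and left out of all counts. The 5' part gave 14105, 13309, 14949 and 10699.7 units and the middle part 13982, 13249, 14897 and 11293 units, both lowest in sample 4. The 3' part gave 12505, 11503, 14669 and 12268 units, where sample 4 lay between samples 2 and 1. The ratio of the 3' to the 5' part of Gapdh was thus 0.887, 0.864, 0.981 and 1.15, highest in sample 4. A probe set that Gapdh shares with pseudogenes gave 5728, 5857, 7100.1 and 4807 units, and a dimmer one gave 185, 246, 195 and 215 units.

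**Figure D4:**
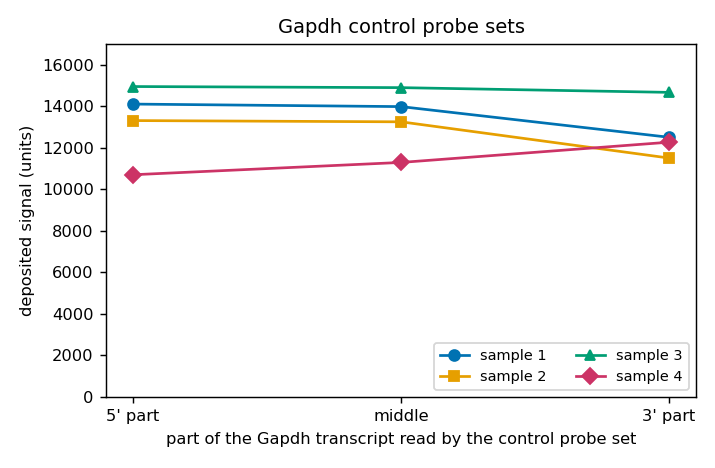
Deposited signal (units) of the Gapdh control probe sets for the 5' part, the middle and the 3' part of the transcript, with 1 line per sample. Sample 4 was lowest at the 5' part (10699.7 units) and the middle (11293 units), whereas at the 3' part sample 2 was lowest (11503 units).

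Lactate dehydrogenase had the widest isoform ratio span with quantile normalization, all 4 samples and the brightest probe set of each gene, a rank that other choices changed. The A subunit (Ldha), which favours making lactate from pyruvate, gave 1809.8, 2610.0, 1967 and 1678 units, with a mean of 2016 ± 413. Sample 2 was 1.44-fold above the mean of the others for Ldha (limma, adjusted p = 0.994). The B subunit (Ldhb), which favours making pyruvate from lactate and prevails in heart, gave 783, 798, 948 and 892 units, a 1.21-fold range. The other Ldhb probe set and that of the testis form Ldhc lay below the floor in all 4 samples. The Ldhb to Ldha ratio spanned 1.74-fold, lowest in sample 2, at -0.49 log2 units from its mean, and highest in sample 4, at 0.31. Without sample 2 the log2 span was 0.30 in place of 0.80, so that this range rested on sample 2. It was then the narrowest of the 7 measured pairs, whose others spanned 0.32 (Pfkm to Pfkl) to 0.93 (Pfkp to Pfkm). With the median over each gene's probe sets the Ldhb to Ldha span was 0.72, as was that of Pfkp to Pfkm. With the floor at the 10th percentile Hk2 to Hk1 and Pgam2 to Pgam1 could be read and spanned more. The summed oligodendrocyte markers were also highest in sample 2, and their part in the ratio was not tested.

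The promoters of these isoform genes are shown because they were the pair with the widest ratio span in the main processing, which took each gene's brightest probe set. They also differ in a short motif. The motif is ACGTG, a form of the core of the hypoxia response element, searched on both strands (CACGT on the other). It overlaps the E-box CACGTG, which holds both. The form GCGTG was not searched, and the Ldhb window shown holds it. Each sequence is the 250 bases before the RefSeq start on GRCm38.p6, 5' to 3' on the gene's strand, with matches in capitals. The Ldha window lies at chr7:46845554-46845803 on the plus strand and the Ldhb window at chr6:142507958-142508207 on the minus strand.
Ldha: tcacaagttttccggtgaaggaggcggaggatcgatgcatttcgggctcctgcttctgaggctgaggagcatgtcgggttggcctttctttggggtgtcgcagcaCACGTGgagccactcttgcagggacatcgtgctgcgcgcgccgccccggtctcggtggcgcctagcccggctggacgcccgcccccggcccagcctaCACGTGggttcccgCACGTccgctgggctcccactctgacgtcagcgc
Ldhb: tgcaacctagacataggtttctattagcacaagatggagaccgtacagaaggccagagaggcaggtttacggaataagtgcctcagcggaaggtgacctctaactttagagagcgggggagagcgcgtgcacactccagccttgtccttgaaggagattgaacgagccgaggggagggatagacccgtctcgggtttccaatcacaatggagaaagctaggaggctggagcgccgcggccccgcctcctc
The Ldha window held the motif at 3 places and the Ldhb window at 0, and the window of a downstream Ldha start at 0. Of the 37 listed genes, 36 had a promoter in the RefSeq table, and 12 of those (33.3%) held the motif in at least 1 window, against 18.5% of all 27025 genes in the table. The 12 were Aldoa, Hk2, Idh3g, Ldha, Mdh1, Ogdh, Pcx, Pdhb, Pfkm, Pgam1, Pgk1 and Pkm. A match describes letters and is not a measured site, and these data hold no binding measurement.

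Pyruvate enters mitochondrial metabolism through the pyruvate dehydrogenase complex or through pyruvate carboxylase. The complex's E1 subunit genes were fairly steady: Pdha1 gave 1917, 1684, 2207 and 1809.8 units, and Pdhb was steady at 1283 ± 86.4. The E2 subunit gene Dlat, whose product passes the acetyl group to coenzyme A, was the exception. One probe set of Dlat gave 53.1, 133, 129 and 133 units, so that samples 2 to 4 spanned a log2 range of 0.05 and sample 1 was 2.48-fold below their mean (limma, adjusted p = 0.994). The brighter Dlat probe set gave 238, 346, 231 and 242 units, with sample 2 apart and sample 1 close to samples 3 and 4. The low value in sample 1 was therefore seen on only one of both Dlat probe sets. Pyruvate carboxylase (Pcx), an astrocyte enzyme in brain that replenishes oxaloacetate, averaged 104 ± 5.78 units on its analysed probe set, a 1.14-fold range. The array's control probe sets for Pcx, in deposited units, spanned more, with 149.9, 192.6, 141.3 and 116 units for the 5' part and 392.9, 349.5, 428 and 366.5 units for the 3' part. These span 1.66-fold and 1.22-fold, and the middle control probe sets 3.64-fold and 1.18-fold. Its other probe set was too dim for analysis, at 52.1, 75.2 and 101 units in samples 1, 2 and 4 and below the floor in sample 3.

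Within the citric acid cycle, the entry and exit enzymes had narrow ranges. The isocitrate dehydrogenases, among them the cytosolic Idh1 from outside the cycle, were lowest in sample 4. Of the 10 analysed probe sets of the cycle itself, 4 were lowest there (Idh2, Idh3a, Idh3g and Fh1), against 30.6% of all analysed probe sets. Citrate synthase (Cs) averaged 1457 ± 69.8 units, a 1.10-fold range (0.14 on the log2 scale, and 0.27 with median scaling). Mitochondrial malate dehydrogenase (Mdh2), which closes the cycle, gave 3483, 3453, 3483 and 3684 units, a 1.07-fold range (0.09 on the log2 scale, and 0.29 with median scaling). Isocitrate dehydrogenase exists as an NAD-linked mitochondrial enzyme built from Idh3 subunits and as NADP-linked enzymes in mitochondria (Idh2) and cytosol (Idh1). The 4 of these genes with an analysed probe set were all lowest in sample 4, with each of the 3 scalings tried. Sample 4 was the lowest for 30.6%, 30.3% and 23.9% of all analysed probe sets with quantile normalization, the deposited values and median scaling. It was the lowest for 17, 14 and 11 of the 35 enzyme probe sets. The catalytic subunit gene Idh3a gave 769, 985, 818 and 627 units and the regulatory subunit gene Idh3g gave 1128, 1167, 1097 and 814 units. Idh2 gave 240.4, 245, 314 and 195 units, and Idh1 gave 263, 258, 239.8 and 189 units. Relative to the average of samples 1 to 3, sample 4 was lower 1.36-fold for Idh3a, 1.39-fold for Idh3g, 1.35-fold for Idh2 and 1.34-fold for Idh1. The sizes were alike across the 4 genes, and the highest sample was not shared: sample 2 for Idh3a and Idh3g (sample 1 for Idh3g with median scaling), sample 3 for Idh2 and sample 1 for Idh1. None passed the variance test (limma, adjusted p = 0.994 for each). Probe sets near the floor did not share one order. The dim probe set of Idh3g was below the floor in sample 4 only, at 36.5, 34.6 and 35.2 units in samples 1 to 3. That of Idh3b, another subunit gene from the wider pathway lists, was above the floor in sample 4 only, at 37.8 units, and the dim Idh3a probe set lay below it in all 4 samples.

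The later cycle steps on the list differed in their order, with sample 4 the highest for some and the lowest for fumarase. Ogdh, the E1 subunit of the oxoglutarate dehydrogenase complex that acts next, gave 1225, 1022, 1190.3 and 1300.0 units, highest in sample 4. Sucla2, the ATP-forming beta subunit of succinyl-CoA synthetase and prominent in brain, was also highest in sample 4, at 1001, 1079.7, 950.2 and 1179.7 units. Its second probe set, of a kind designed outside the usual rules, gave 64.7, 121, 112 and 235 units, the widest range of the 35 at 3.63-fold (limma, adjusted p = 0.911). The Sucla2 probe sets shared sample 4 as their highest, with sample 4 above the mean of the others by 1.17-fold on the brighter and 2.46-fold on the dimmer. Both were built from the same sequence, so they are not independent, and the brighter is of a kind that can read related sequences. The alpha subunit Suclg1, which pairs with Sucla2, gave 1009, 946, 1198 and 950.2 units and was highest in sample 3. Fumarase (Fh1) gave 742, 689, 666 and 605 units, lowest in sample 4.

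The cytosolic malate dehydrogenase and the aspartate aminotransferases belong to the shuttle that moves reducing equivalents into mitochondria. Cytosolic malate dehydrogenase (Mdh1) gave 209, 176, 157 and 225 units, lowest in sample 3 and highest in sample 4, whereas Mdh2 hardly varied. Mitochondrial aspartate aminotransferase (Got2) gave 743, 1001, 804 and 969.6 units on a probe set designed outside the usual rules, with samples 2 and 4 above samples 1 and 3 (sample 4 the highest with the other scalings). The other Got2 probe set and that of the cytosolic form Got1 lay below the floor in all 4 samples.

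Isoform ratios, taken within each array, moved by less than 2-fold between samples. Each gene was read by its brightest probe set. Of 13 isoform pairs listed, 7 could be measured above the floor in all samples, and 0 of the 7 spanned 2-fold. After Ldhb to Ldha, the widest was Pfkp to Pfkm, with a log2 span of 0.59, lowest in sample 4 at -0.40 log2 units from its mean. The span was 0.11 without sample 4, and 0.93 without sample 2, where the other Pfkp probe set was the brighter. Over all 4 samples that probe set was nearly as bright (a mean of 432 units, against 436). Its log2 range was wider, at 0.84 against 0.58. With it, Pfkp to Pfkm spanned more than Ldhb to Ldha. Idh1 to Idh2 spanned 1.43-fold, lowest in sample 3 (a log2 span of 0.52, and 0.17 without sample 3), and Mdh1 to Mdh2 spanned 1.35-fold, also lowest in sample 3. Pfkp to Pfkl spanned 1.32-fold, a log2 span of 0.395, and 0.785 without sample 2, again with the other Pfkp probe set. Pfkm to Pfkl spanned 1.28-fold. The ratio of the astrocyte-typical Aldoc to Aldoa spanned 1.27-fold, with sample 4 highest at 0.21 log2 units above its mean. No test of these spans was run. Pairs with Eno1 had no probe set, and those with Hk2, Pgam2, Ldhc or Got1 held values below the floor.

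**Figure D5:**
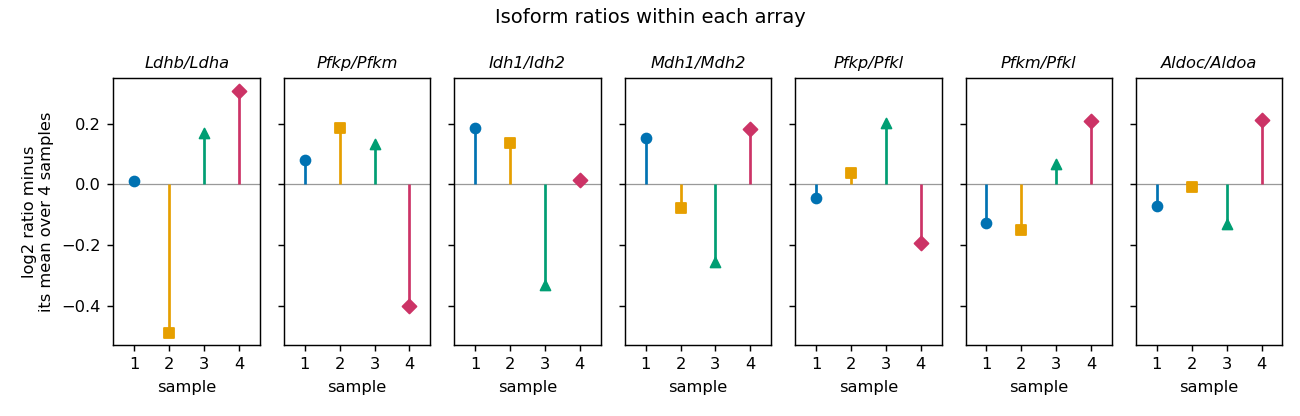
Log2 ratio of the isoforms in each of 7 pairs (brightest probe set of each gene) minus the pair's mean over the 4 samples, with 1 point per sample and panels ordered by span. The lowest point is that of Ldhb to Ldha in sample 2 (-0.49), followed by Pfkp to Pfkm in sample 4 (-0.40).

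Genes that feed, regulate or branch from these pathways had a median range near that of all analysed probe sets. It was wider than that of the enzymes, but not relative to the intensity trend. Their median signal was lower, at 377 units against 1180 for the enzymes. The median SD was 0.919 times the trend for these genes and 1.03 times for the enzymes. Of 70 such genes listed, 53 had a probe set and 36 an analysed one, with 39 analysed probe sets in all. Of these, 0 passed the variance test (limma, smallest adjusted p = 0.611), 6 spanned at least 2-fold (15.4%, against 14.4% of all analysed probe sets), and the median range was 1.45-fold, against 1.44-fold. The list of remaining citric acid cycle genes also held cytosolic enzymes and metabolite carriers tied to the cycle. Its probe sets exceeded the average of the other 3 samples on 12 of 12 in sample 1, against 51.4% of all analysed probe sets. In sample 4, 2 of 12 did, against 52.2%. The median log2 deviation in sample 4 was -0.30 with quantile normalization, -0.26 with the deposited values and -0.18 with median scaling, against 0.02, 0.03 and 0.11 over all analysed probe sets. Sample 4 was the lowest for 10, 9 and 5 of the 12 with these scalings, against 30.6%, 30.3% and 23.9% of all. With quantile normalization the 10 included Dlst, a subunit of the oxoglutarate dehydrogenase complex, and Sdha, Sdhb, Sdhc and Sdhd of succinate dehydrogenase. In that list Sdhd, a membrane anchor of succinate dehydrogenase, gave 1213, 1192, 1441 and 736 units, lowest in sample 4. Sdhb, the iron-sulfur subunit, spanned only 1.12-fold. Among glucose transporters, Slc2a1 of vessels and astrocytes gave 177, 213, 173 and 222 units. The neuronal transporter Slc2a3 was highest in sample 1 on one probe set and in sample 4 on the other, at 387, 354, 297 and 483 units on the brighter.

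The other genes that spanned at least 2-fold had no common order. Glycogen phosphorylase of brain (Pygb), which releases glucose units from glycogen, gave 535, 541, 572 and 198 units, lowest in sample 4. The pentose phosphate enzyme transketolase (Tkt) was also lowest in sample 4, at 452, 524, 719 and 355 units. Mitochondrial glycerol phosphate dehydrogenase (Gpd2) gave 402, 686, 1057 and 804 units, lowest in sample 1. Pfkfb3, whose product makes an activator of phosphofructokinase, was highest in sample 4, at 93.8, 116, 72.8 and 228 units. Its other probe set lay below the floor in all 4 samples. Pdk4, a kinase that switches off pyruvate dehydrogenase, was highest in sample 4 as well, at 115, 74.5, 93.5 and 176 units. A Pklr probe set, for the liver and red cell pyruvate kinase, gave 209, 251, 59.9 and 110.3 units. It was lowest in sample 3, as was the summed signal of the erythroid markers, and their part in it was not tested. The other Pklr probe set was above the floor in sample 4 only, at 32.2 units.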

How the data were processed

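The authors deposited linear intensities, whose values on every array share a trimmed mean of 250.1 units (2% left out at each end); the software behind them is not given in the sources used here. Control probe sets (66 of 12488) were left out. Arrays were brought to the same quantiles (limma 3.58.1, R 4.3.3), values below the 25th percentile (27.7 units) were set to it as a floor, and log2 was taken. Probe sets with a mean log2 above the median were analysed. Each variance was set against the robust intensity trend with a one-sided F test (3 residual and 5.20 prior degrees of freedom), adjusted by Benjamini-Hochberg over 6211 probe sets. The test was tested on simulated data whose noise followed the intensity trend alone. These lacked the further spread of variances between probe sets, so they cannot show how the test performs on the real arrays. Depth does not apply to arrays. Symbols came from the platform annotation (1 symbol for 10833 probe sets, several for 396, none listed for 1193), updated through RefSeq of GRCm38.p6. The genes shown, the gene and marker lists and the isoform pairs were chosen with earlier results of these data known. All members are named. Other genes are named where they had the largest range of their list, spanned at least 2-fold, stood apart in 1 sample, or (Apoe, Dlst, Gfap, Hba-a1, Idh3b, Sdha, Sdhb, Sdhc and Slc2a1) were chosen after their values were seen. Alternatives covered scaling, floor, filter, probe set choice and each sample left out.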

Additional observations from a re-analysis of the deposited data

Results flagged for a closer look

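In 5 of the 35 enzyme probe sets 1 sample lay far from the other 3, measured by its gap to the nearest sample as a share of the whole range (Dixon's criterion at 95% for 4 values). This was found for 6.02% of all analysed probe sets, and chance flags about 1 group in 20. The gap was 0.933 of the range for Tpi1 (sample 1 high), 0.868 for Pgam1 (sample 4 low), 0.864 for Mdh2 (sample 4 high, within a 1.07-fold range) and, for Dlat, 0.961 on the dimmer probe set (sample 1 low) and 0.882 on the brighter (sample 2 high). In the other pathway lists, 4 of 39 probe sets met it, with gaps of 0.936 for Pygb (sample 4 low), 0.871 for Pck2 (sample 1 high), 0.861 for Taldo1 (sample 3 low) and 0.854 for Pygm (sample 3 low). The median log2 deviation of the 35 enzyme probe sets met it too, at 0.972, with sample 4 low. These 4 medians depend on one another.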

How the results depend on the processing

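No enzyme probe set passed the variance test under any alternative tried. The count with a range of at least 2-fold, 2 in the report, was 1 with no floor and log2 of the value plus 32 (all analysed probe sets 9.19%, against 14.4% in the report). It was 5 of 45 without the signal filter (22.6%, with Pcx, Pgam2 and Hk2 near the floor added) and 0 to 1 with 1 sample left out (6.65% to 11.0%). With 1 probe set per gene it was 0 of 30. The share beside that, 14.4%, was still taken over all analysed probe sets, which were not reduced to 1 per gene. Median scaling changed the median log2 deviation to -0.095 in sample 2 and 0.005 in sample 4, where those of all analysed probe sets were -0.0884 and 0.107. It changed the number of probe sets lowest in sample 4 to 11, and that on the list of remaining citric acid cycle genes to 5 of 12, alternatives chosen after seeing the data. Leaving out 1 sample gave medians of 0.006 to 0.096, -0.027 to 0.043, -0.035 to 0.058 and -0.116 to -0.093 in samples 1 to 4. The count of isoform pairs spanning 2-fold, 0 in the report, was 2 with the floor at the 10th percentile (Hk2 to Hk1 and Pgam2 to Pgam1), 1 with no floor and log2 of the value plus 32, and 0 to 1 with 1 sample left out. Of 182 single ranges and ratio spans under other settings, 8 moved by over 1 SD. Of 168 with 1 sample left out, 32 did. No paired analysis was possible because there is 1 group. Low signals cannot be told from background here, since no detection calls were used.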
